A study of Rattus norvegicus with 164 samples.

Results

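Libraries of rat prelimbic cortex, a medial prefrontal region, differed in the level of genes of layer 6 neurons. The 37 libraries with the highest mean level of these genes were compared with the 37 that had the lowest. All are poly(A) RNA libraries of outbred heterogeneous stock rats, sequenced as part of a study of brain gene expression and genetics in this population, and 130 libraries had expression values. Levels throughout are log2 of counts per 1000000 (CPM) plus 1. The libraries were kept where Drd2, a dopamine receptor gene abundant in striatum, was at 6 or below and Gad2, which encodes a GABA-synthesising enzyme, was at 4.7 or above. This left out 11 libraries for Drd2 and 7 for Gad2, and the 112 kept were ordered by the mean of Syt6, Foxp2 and Tle4, genes of layer 6 neurons. That mean was higher still in the 11 libraries left out for Drd2, at 6.40 to 6.90, against at most 5.75 in those kept. Whether RNA from striatum adds to the order of the kept libraries was not tested. The 37 highest are called layer 6-rich, the 37 lowest layer 6-poor, and 38 lie between. The groups are therefore made from measured values and not from a treatment, and no sex, age, dissection record or sequencing batch is given in the sources used here. The labels give 2 kinds of animal identifier: 20 layer 6-rich and 15 layer 6-poor libraries carry a decimal number, and 17 layer 6-rich and 22 layer 6-poor libraries carry a code starting with E21DCD, of which 5 and 3 were reassigned identifiers.

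The cerebral cortex is built of layers, and its deepest neurons lie next to the white matter. Layer 6 holds the corticothalamic neurons, which send axons to the thalamus; below it lies layer 6b, a thin sheet of neurons that persist from the subplate of the embryo, and then the myelinated axons of the white matter. Layer 2/3, which connects cortical areas with each other, lies near the surface, where fibroblasts of the meninges cover the brain. The comparison was set up as a view of how deep the dissected pieces reached. That depth was not recorded, and whether it orders the libraries was not tested. In bulk RNA, fewer cells of a type and less RNA per cell cannot be told apart.

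The values that chose the libraries are given as a description. The mean of the 3 ranking genes ran from 5.17 over a median of 5.31 to 5.75 in layer 6-rich libraries, and from 4.22 over 4.79 to 4.93 in layer 6-poor libraries. The order has no gap at either limit: the last library inside the rich group had 5.168 and the first outside it 5.1663, while the last inside the poor group had 4.9295 and the first outside it 4.9343. Syt6, a synaptotagmin, had 4.696, 5.03 and 5.56 as lowest, median and highest level in layer 6-rich libraries, against 3.67, 4.40 and 4.68 in layer 6-poor libraries. Foxp2, a forkhead transcription factor, had 4.10, 4.39 and 4.85 in layer 6-rich libraries, against 2.97, 3.84 and 4.11 in layer 6-poor libraries. Tle4, a Groucho-family corepressor, had 6.33, 6.51 and 6.83 in layer 6-rich libraries, against 5.82, 6.12 and 6.27 in layer 6-poor libraries. The groups were thus apart in Syt6 and Tle4 and touched in Foxp2. When each gene ranked the libraries alone, it shared 29 (Syt6), 29 (Foxp2) and 30 (Tle4) of the 37 layer 6-rich libraries and 33, 30 and 32 of the 37 layer 6-poor libraries, and no library changed to the opposite group. In the GRCr8 assembly, whose gene ends match the positions in the deposited table, Syt6 lies on chromosome 2 (193781051 to 193840741), Foxp2 on chromosome 4 (44099848 to 44677700) and Tle4 on chromosome 1 (221086250 to 221222826).

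Slc17a7, which loads glutamate into synaptic vesicles of cortical neurons, was not used to choose the libraries. It had 10.48 to 11.20 in layer 6-rich libraries and 10.64 to 10.98 in layer 6-poor libraries. Gad2 and Drd2 were used to choose the libraries, so their levels are given as a description. Gad2 had 5.33, 6.23 and 6.46 as lowest, median and highest level in layer 6-rich libraries, against 5.37, 6.22 and 6.496 in layer 6-poor libraries, and Drd2 had 2.48, 3.08 and 4.65 against 1.94, 2.85 and 3.60. Depth differed on average: in units of 1000000, summed estimated counts were 30.2 ± 9.55 in layer 6-rich libraries and 26.2 ± 6.79 in layer 6-poor libraries (SD, n = 37 each). With the summed count as a covariate, 558 genes passed the test as higher (3.68% of the genes tested) and 439 as lower (2.9%), against 643 and 560 without it. A single layer 6-rich library had Drd2 above 4 and no layer 6-poor library did; without it 611 genes were higher (4.03%) and 515 lower (3.4%). Without the limit on Gad2, 301 genes were higher (1.99%) and 86 lower (0.568%).

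Across the 15145 genes tested besides the 5 of the rule, 643 were higher in layer 6-rich libraries (4.25% of the genes tested) and 560 were lower (3.7%) at an adjusted p under 0.05 (limma, Benjamini-Hochberg). The differences were mostly small. Their median size among the 1203 genes called (7.94% of those tested) was 0.19 on the log2 scale, 71 genes were higher by 0.5 or more, and 3 were lower by 0.5 or more. No gene separated the groups without overlap. The median difference of all genes tested was -0.01, and 41.4% of them were above 0. In 1085 of the 1203 called genes (90.2%) the median of the 38 middle libraries, which the test did not use, lay between those of the layer 6-rich and layer 6-poor libraries, as it did in 42.9% of all genes. Called genes were chosen for a difference between the outer groups, which leaves more room for a median between them. The shares are therefore not a like comparison, and no conclusion is drawn from them. The p-values measure the spread between libraries of separate rats, in the same libraries that the ranking genes ordered.

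Other genes of layer 6 corticothalamic neurons were mostly higher in layer 6-rich libraries. Of 16 listed genes that the ranking did not use, 10 were higher, 2 were lower and 4 did not pass the test, with a median difference of 0.19. Rprm, which encodes the cell cycle inhibitor reprimo and marks deep cortical neurons in mice, had 5.28, 5.85 and 6.35 as lowest, median and highest level in layer 6-rich libraries, against 4.29, 5.22 and 5.78 in layer 6-poor libraries. The median layer 6-rich library was above every layer 6-poor library, while the lower layer 6-rich libraries overlapped with the upper layer 6-poor ones. The difference was 0.70 ± 0.07 (SE, adjusted p = 4.58e-13, limma). Hs3st4, a sulfotransferase that modifies heparan sulfate, had 5.64, 6.06 and 6.52 in layer 6-rich libraries, against 4.84, 5.50 and 6.07 in layer 6-poor libraries. The upper layer 6-poor libraries reached the median of the layer 6-rich ones, and the groups differed by 0.59 ± 0.05 (SE, adjusted p = 2.77e-13). Thsd7b, a thrombospondin-domain gene, had 3.60, 3.87 and 4.35 in layer 6-rich libraries, against 2.83, 3.47 and 3.69 in layer 6-poor libraries. Its overlap, between 3.60 and 3.69, was small beside the whole range, and the difference was 0.46 ± 0.05 (SE, adjusted p = 5.72e-12).

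The rest of this list gave a graded picture. Sulf1, a secreted enzyme that removes sulfate groups from heparan sulfate, was higher by 0.53 ± 0.06 (SE, adjusted p = 2.88e-09, limma). Differences of 0.15 to 0.33 were found in Grik3 (0.33), a kainate receptor subunit, Igsf21 (0.30), a synaptic adhesion protein, and Zfpm2 (0.25), a transcriptional cofactor. Tbr1 (0.20), a T-box factor needed for layer 6 identity in mice, Nfia (0.18), a nuclear factor, and Kcnk2 (0.15), a background potassium channel, completed the genes that were higher. Ntsr1, the neurotensin receptor gene much used to mark corticothalamic neurons in mice, had 1.82, 3.41 and 3.98 in layer 6-rich libraries, against 1.45, 3.17 and 4.15 in layer 6-poor libraries. These ranges overlap almost fully, and the difference of 0.16 ± 0.10 did not pass the test (SE, adjusted p = 0.381). Cobll1 (0.15), Garnl3 (0.12) and Sla (0.12) did not pass it either. Col5a1, a chain of type V collagen that fibroblasts also make, was lower, with a difference of -0.37 ± 0.09 (SE, adjusted p = 0.00272), and so was Ptprk, a receptor tyrosine phosphatase, with -0.15 (adjusted p = 0.00378).

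**Figure D1:**
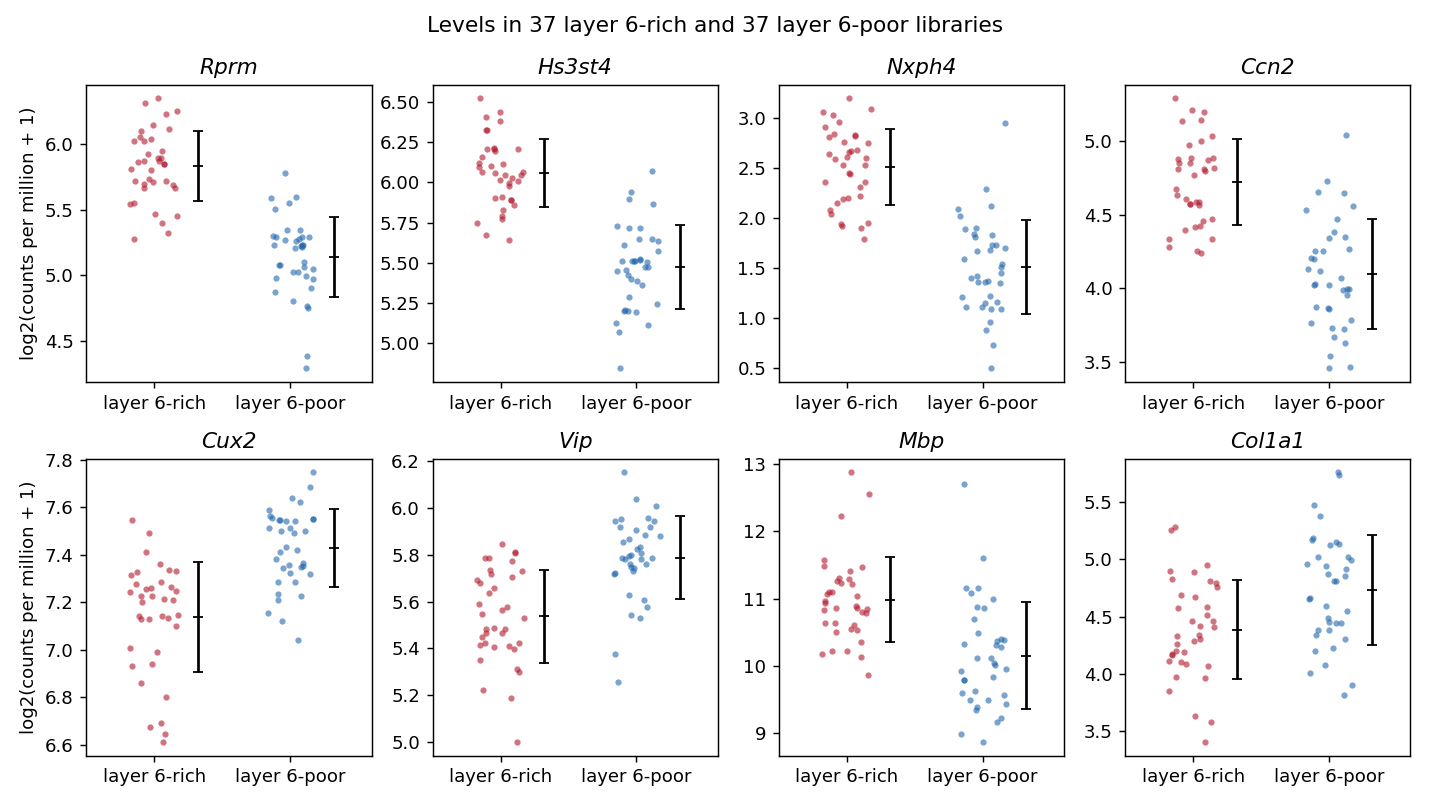
Level of 8 genes, as log2(CPM + 1), in each of the 37 layer 6-rich (left, red) and 37 layer 6-poor (right, blue) libraries, with the mean and SD beside the points and a scale of its own for each gene. Rprm, Hs3st4, Nxph4, Ccn2 and Mbp are higher and Cux2, Vip and Col1a1 lower in layer 6-rich libraries, and the groups overlap in every panel.

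Layer 6b genes included the largest neuronal difference of these lists. Of 12 listed genes, 5 were higher in layer 6-rich libraries, none was lower and 7 did not pass the test, with a median of 0.12. Nxph4, a neurexophilin, which is a secreted ligand of neurexins, had 1.79, 2.59 and 3.20 in layer 6-rich libraries, against 0.49, 1.44 and 2.95 in layer 6-poor libraries. A layer 6-poor library with 2.95 lay inside the rich range, while the median of the layer 6-poor libraries was below every layer 6-rich library, and the difference was 1.00 ± 0.10 (SE, adjusted p = 1.08e-12, limma). Cplx3, a complexin that acts in vesicle release, had 3.21, 4.12 and 4.91 in layer 6-rich libraries, against 2.54, 3.47 and 4.87 in layer 6-poor libraries. Here the highest libraries of the groups were about level and the overlap was wide, with a difference of 0.75 ± 0.11 (SE, adjusted p = 2.22e-07). Ccn2, also called connective tissue growth factor and a classic subplate marker in rodents, had 4.24, 4.77 and 5.29 in layer 6-rich libraries, against 3.45, 4.03 and 5.04 in layer 6-poor libraries, and differed by 0.63 ± 0.08 (SE, adjusted p = 2.88e-09). The median layer 6-poor library was below all layer 6-rich ones in Ccn2 as well. Tmem163, a zinc transporter, was higher by 0.22 (adjusted p = 0.000184), and Hcrtr2, an orexin receptor, by 0.20 (adjusted p = 0.00283). Moxd1 (0.01), Nr4a2 (0.10), an orphan nuclear receptor of subplate and claustrum neurons, and Rxfp1 (0.10), a relaxin receptor, did not pass the test. Nxph4 lies on chromosome 7 (65253043 to 65261864), Cplx3 on chromosome 8 (66899438 to 66906200) and Ccn2 on chromosome 1 (22621498 to 22624614) of GRCr8.

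Genes of layer 2/3 ran the other way. Of 15 listed genes, none was higher in layer 6-rich libraries, 5 were lower and 10 did not pass the test, with a median of -0.12. The summed level of the list was 823, 1084 and 1347 CPM as lowest, median and highest in layer 6-rich libraries and 920, 1234 and 1412 CPM in layer 6-poor libraries. Cux2, a homeobox factor of upper-layer neurons, had 6.61, 7.21 and 7.55 in layer 6-rich libraries, against 7.04, 7.43 and 7.75 in layer 6-poor libraries. The lowest libraries were layer 6-rich, the highest were layer 6-poor and the range between was shared, with a difference of -0.29 ± 0.05 (SE, adjusted p = 3.57e-06, limma). Wfs1, a protein of the endoplasmic reticulum, had 7.47, 8.12 and 8.57 in layer 6-rich libraries, against 7.77, 8.43 and 8.85 in layer 6-poor libraries, and differed by -0.30 ± 0.06 (SE, adjusted p = 0.000227). The groups overlapped over most of their range in Wfs1. Calb1, a calcium buffer (-0.24, adjusted p = 5.33e-06), Rasgrf2, an exchange factor for small GTPases (-0.24, adjusted p = 0.00102), and Stard8, a GTPase-activating protein (-0.15, adjusted p = 0.0305), were lower too. Cux1 (-0.03), Otof (-0.15), Adamts2 (-0.25) and Mdga1 (0.13) did not pass the test.

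Layer 5 genes were split, with 2 of 16 higher, 2 lower and a median of -0.02. Bcl11b, the transcription factor CTIP2 of deep-layer neurons that project out of the cortex, was higher by 0.21 (adjusted p = 0.00769, limma), and Sulf2, a partner enzyme of Sulf1, by 0.09 (adjusted p = 0.016). Npr3, a natriuretic peptide receptor, had a difference of -0.23 (adjusted p = 0.016) and Parm1 of -0.21 (adjusted p = 0.00953). Fezf2, which specifies corticofugal neurons in mice, differed by 0.11 and did not pass the test (adjusted p = 0.0826). Of 12 markers of excitatory neurons 4 were lower and none was higher, with a median of -0.09. Slc17a7 differed by 0.01 ± 0.02 (SE, adjusted p = 0.837). The genes that were lower had differences of -0.21 in Neurod1, -0.19 in Slc30a3, the zinc transporter of synaptic vesicles, -0.18 in Rtn4rl2 and -0.11 in Camk2a.

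Of 18 interneuron genes, 5 were lower in layer 6-rich libraries and none was higher, with a median of -0.09. Vip, the peptide of an interneuron class that is common in upper layers, had 5.00, 5.53 and 5.85 in layer 6-rich libraries, against 5.26, 5.79 and 6.15 in layer 6-poor libraries. Most of both ranges was shared, and the difference was -0.25 ± 0.04 (SE, adjusted p = 1.82e-05, limma). Htr3a, a serotonin receptor channel (-0.17, adjusted p = 0.015), Tac3, the neurokinin B gene (-0.17, adjusted p = 0.0242), Cck, cholecystokinin (-0.16, adjusted p = 0.0105), and Gad1, a second GABA-synthesising enzyme (-0.09, adjusted p = 0.0217), were lower as well. Pvalb (-0.05) and Sst (0.01), which mark the interneuron classes that are common in deeper layers, did not pass the test.

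**Figure D2:**
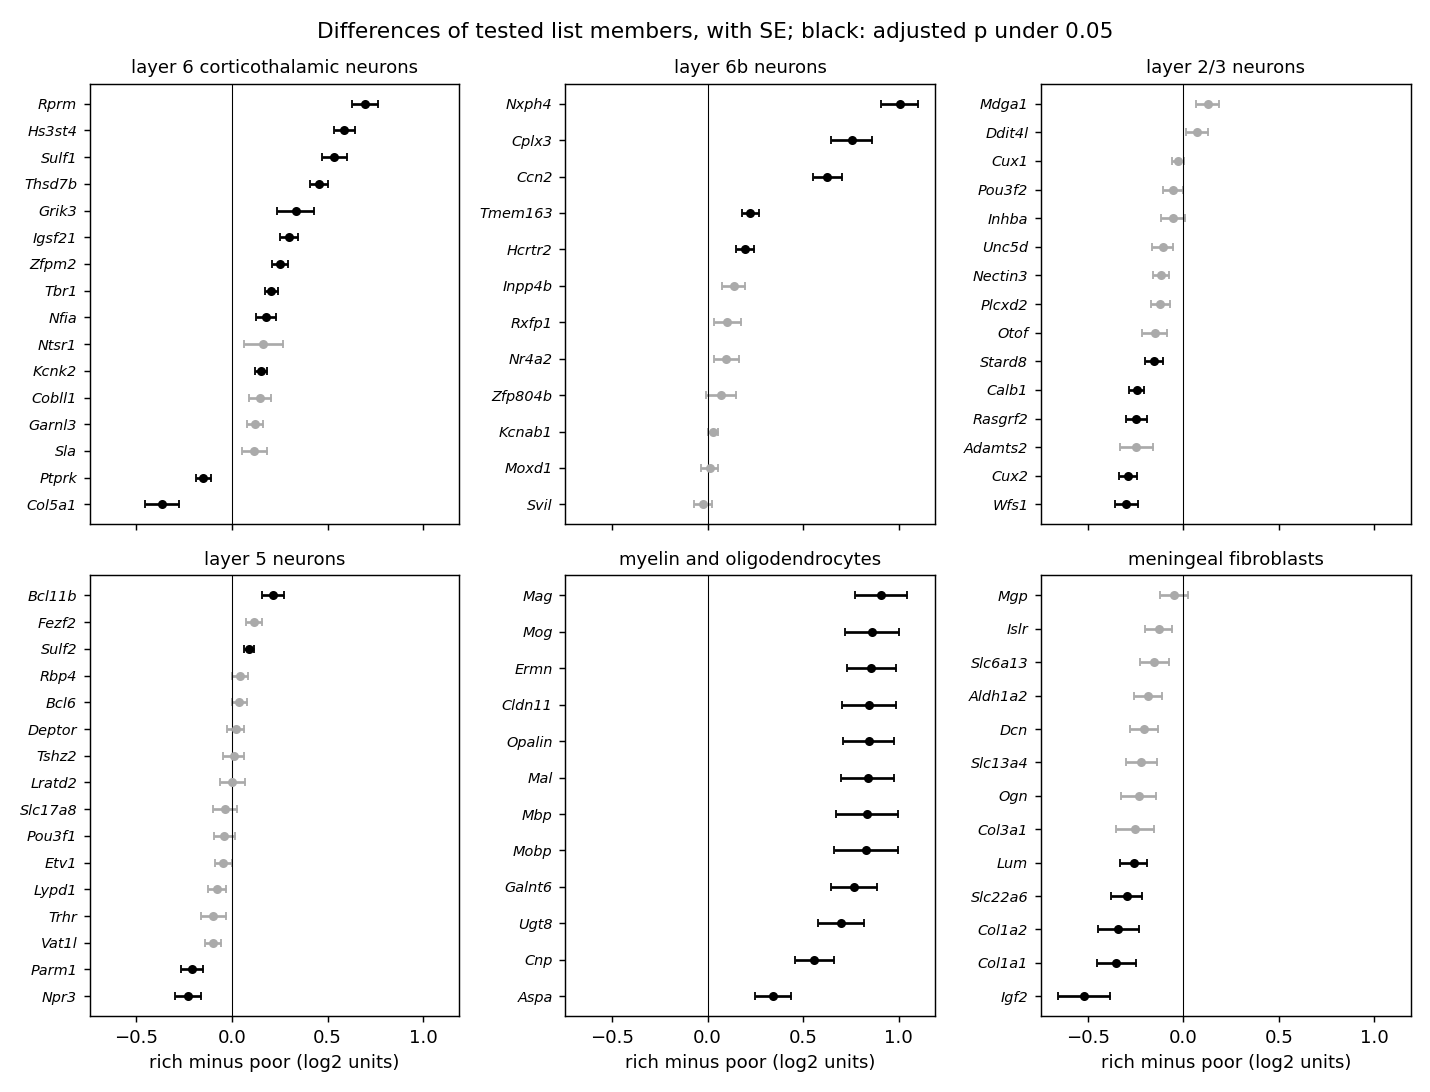
Differences of tested list members, layer 6-rich minus layer 6-poor libraries, in log2 units with its SE, in 6 gene lists; black points passed the test and grey points did not. Layer 6 and layer 6b members lie mostly right of 0, layer 2/3 and meningeal members mostly left, layer 5 members on both sides, and the myelin members shown lie between 0.34 and 0.91.

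Genes of myelin made up most of the largest differences. All 14 listed genes of myelin and oligodendrocytes were higher in layer 6-rich libraries, with a median of 0.83. Their summed level was 2386, 4714 and 16596 CPM as lowest, median and highest in layer 6-rich libraries and 1257, 2615 and 13230 CPM in layer 6-poor libraries, a ratio of medians of 1.80. Mbp, myelin basic protein, had 9.87, 10.90 and 12.88 in layer 6-rich libraries, against 8.87, 10.05 and 12.71 in layer 6-poor libraries. The spread within each group was several times the difference in medians, and single libraries of both groups reached the top of the range. The difference of Mbp was 0.84 ± 0.16 (SE, adjusted p = 0.000141, limma). Mag, an adhesion protein of the inner myelin membrane, had 5.82, 6.65 and 8.29 in layer 6-rich libraries, against 4.77, 5.62 and 7.46 in layer 6-poor libraries, and differed by 0.91 ± 0.14 (SE, adjusted p = 1.5e-06). Where the mean level was 3 or more, the 15 largest positive differences included those of Mag, Mog, Ermn, Cldn11, Tf, Opalin, Mal, Mbp, Mobp, Anln, Tmem88b, Klk6 and Galnt6, from 0.91 down to 0.77. Of 10 oligodendrocyte precursor genes 4 were higher: Sox10 (0.39), Olig1 (0.33), Olig2 (0.26) and Neu4 (0.21), of which Sox10, Olig1 and Olig2 are transcription factors of the whole lineage. Pdgfra, the growth factor receptor that defines precursors, differed by 0.02 (adjusted p = 0.828). Without the library with Drd2 above 4, 2 genes of the precursor list passed in place of 4.

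The myelin result depended on the gene that ranked the libraries. Ranked by Syt6 alone or Tle4 alone, 14 and 13 of the 14 myelin genes were higher, with medians of 0.96 and 0.82, but ranked by Foxp2 alone only 2 were, with a median of 0.37. Mbp then differed by 0.33 and did not pass the test (adjusted p = 0.229), and Mag differed by 0.50 (adjusted p = 0.0279). The layer 6 list had 9, 11 and 10 higher genes when Syt6, Foxp2 and Tle4 ranked alone, and the layer 6b list 5, 6 and 5.

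A fit with the mean of the 14 myelin genes as a covariate gives the difference at equal myelin level. With it, 1076 genes were higher (7.1% of the genes tested) and 1655 were lower (10.9%). Of the 643 genes called higher without the covariate 225 were called higher again, and of the 560 called lower 200 were called lower again; 213 of the 1203 changed sign. Of the layer 6 corticothalamic list 9 genes were higher and none was lower, and of the layer 6b list 6 were higher, with medians of 0.25 and 0.14. Rprm differed by 0.70 with the covariate (adjusted p = 1.7e-09), Sulf1 by 0.62 (adjusted p = 2.09e-08) and Grik3 by 0.63 (adjusted p = 7.85e-06), while the 3 layer 6b genes with the largest differences had smaller ones than without it, of 0.71 in Nxph4 (adjusted p = 9.17e-07), 0.46 in Cplx3 (adjusted p = 0.00348) and 0.44 in Ccn2 (adjusted p = 0.000161). In layer 2/3, 3 genes were lower with the covariate: Cux2 at -0.15 (adjusted p = 0.023), Calb1 at -0.14 (adjusted p = 0.0179) and Cux1 at -0.12 (adjusted p = 0.00325). Wfs1 at -0.08 (adjusted p = 0.325), Rasgrf2 at -0.05 (adjusted p = 0.563) and Stard8 at -0.11 (adjusted p = 0.185) no longer passed. Vip kept a difference of -0.20 (adjusted p = 0.00402). Of 18 interneuron genes 3 were lower and 1 higher with the covariate, against 5 lower without it. Of 12 excitatory neuron genes 1 was lower and 1 higher with the covariate, against 4 lower without it. Of 16 layer 5 genes 3 were higher and none lower with the covariate, against 2 higher and 2 lower without it. Astrocyte and microglia genes, none of which passed without the covariate, were lower with it in 10 of 12 and 9 of 12 cases. The shift was not limited to glial genes. Ribosomal protein genes, of which 1 was lower without the covariate, were lower with it in 14 of 16 cases, against 10.9% of all genes tested.

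**Figure D3:**
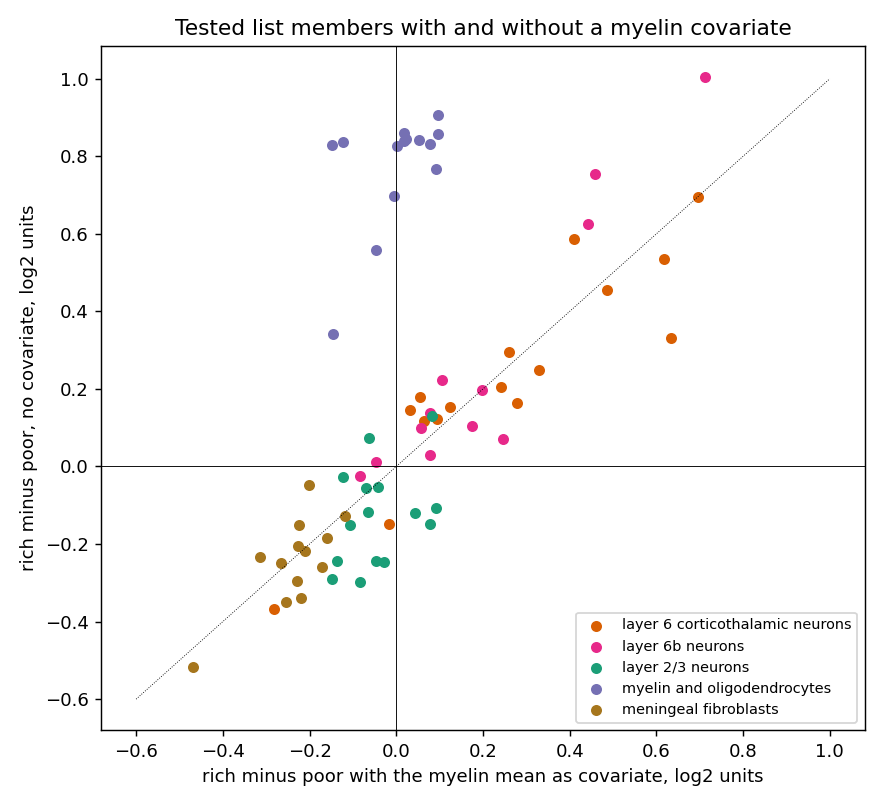
Difference between layer 6-rich and layer 6-poor libraries, in log2 units, of the tested members of 5 lists, without a covariate (vertical) and with the myelin mean as covariate (horizontal); the dotted line marks equal values. Most layer 6 and layer 6b genes are near the line, while Grik3 (0.33 without and 0.63 with the covariate) lies below it and Nxph4 (1.00 and 0.71), Cplx3 and Ccn2 above it; the myelin genes, which make up the covariate, are near 0 on the horizontal axis.

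**Figure D4:**
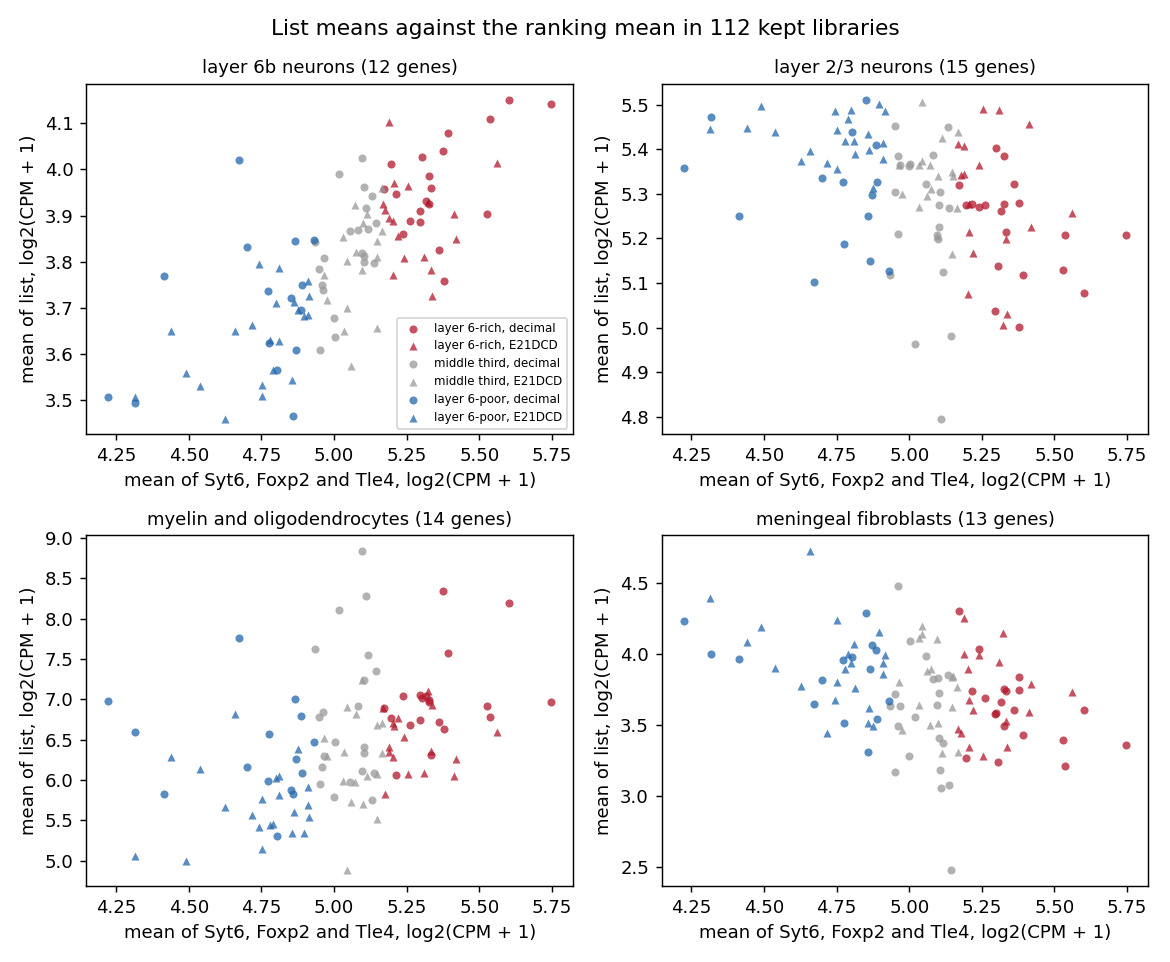
Mean level of 4 gene lists, as log2(CPM + 1), against the ranking mean of Syt6, Foxp2 and Tle4 in the 112 kept libraries, coloured by group and shaped by identifier series. Layer 6b levels are higher toward the rich side, layer 2/3 and meningeal levels are spread widely and lower on the rich side, and the highest myelin levels are scattered over all 3 groups.

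Genes of meningeal fibroblasts were lower in layer 6-rich libraries. Of 13 listed genes, 5 were lower and none was higher, all 13 differences were below 0, and their median was -0.23. Their summed level was 128, 196 and 360 CPM as lowest, median and highest in layer 6-rich libraries and 138, 252 and 541 CPM in layer 6-poor libraries. Igf2, a growth factor made by the meninges, had 4.72, 5.57 and 6.79 in layer 6-rich libraries, against 4.74, 6.15 and 7.78 in layer 6-poor libraries. The highest levels were in layer 6-poor libraries while the lowest were alike, and the difference was -0.52 ± 0.14 (SE, adjusted p = 0.00791, limma). Col1a1, a chain of type I collagen, had 3.41, 4.34 and 5.28 in layer 6-rich libraries, against 3.81, 4.81 and 5.76 in layer 6-poor libraries, and differed by -0.35 ± 0.10 (SE, adjusted p = 0.0192). Its ranges were shared over most of their length. Col1a2 (-0.34), Slc22a6, an organic anion transporter (-0.30), and Lum, the proteoglycan lumican (-0.26), were the other genes that passed. Where the mean level was 3 or more, the 15 largest negative differences were those of Igf2, Igfbp2, Col27a1, Ryr1, Col5a1, Meg3, Col1a1, Cbln4, Col1a2, Rgs16, Gpc3, Wfs1, Glt8d2, Ccbe1 and Fstl4, from -0.52 to -0.30. Cbln4, a cerebellin that organises synapses, differed by -0.35 (adjusted p = 7.7e-05), and Igfbp2, a binding protein of insulin-like growth factors, by -0.42 (adjusted p = 0.00301). With the mean of the meningeal genes as a covariate, 557 genes were higher (3.68% of the genes tested) and 357 lower (2.36%).

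Genes of neighbouring regions gave a mixed result. Of 14 striatal genes tested, 5 were higher, with a median of 0.18 over the list. Rgs9, a regulator of G-protein signalling abundant in striatum, had 3.21, 3.60 and 5.08 in layer 6-rich libraries, against 2.21, 3.08 and 4.18 in layer 6-poor libraries. Its groups overlapped widely, the top value belonged to a layer 6-rich library, and the difference was 0.56 ± 0.09 (SE, adjusted p = 1.74e-06, limma). Syndig1l (0.44), Ppp1r1b (0.39), the dopamine-regulated phosphoprotein DARPP-32, Drd1 (0.33), a dopamine receptor, and Penk (0.27), the enkephalin precursor, were higher, and all 5 also passed without the library with Drd2 above 4. Drd1 and Ppp1r1b are also expressed by deep-layer cortical neurons in rodents. Adora2a (0.27, adjusted p = 0.192), Tac1 (0.01) and Pde10a (0.00) did not pass. Isl1, a transcription factor of striatal direct-pathway neurons, was below the level at which genes were tested and reached at most 0.65 in layer 6-rich libraries and 0.17 in layer 6-poor libraries. With the myelin covariate Rgs9 (0.32, adjusted p = 0.0117) and Drd1 (0.23, adjusted p = 0.0247) passed, and Ppp1r1b (0.07) and Syndig1l (-0.08) did not.

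The other neighbouring regions were compared in the same way. None of 8 claustrum and endopiriform genes and none of 7 septal genes passed with limma. At an unadjusted p under 0.05, 3 of each list were lower, as were 11.2% of all genes tested. Among E21DCD libraries alone 2 genes of each list passed as lower, against 2.12% of all genes tested, and among decimal libraries none did. With the myelin covariate 1 claustrum and 3 septal genes were lower, against 10.9% of all genes tested. The claustrum differences ran from -0.21 to 0.07, with 4 above 0 and 4 below. Gnb4 and Oprk1, at 0.01 and 0.06, were among those above 0. Nr2f2 had a median of 3.80 in layer 6-rich libraries against 4.08 in layer 6-poor libraries. Of 8 genes of olfactory areas only 3 were expressed highly enough to be tested, and 2 of these were higher: Cdhr1, a cadherin-related protein of olfactory bulb output neurons in mice, by 0.60 ± 0.07 (SE, adjusted p = 3.69e-09, limma), and Slc17a6, a vesicular glutamate transporter, by 0.31 (adjusted p = 0.0389). Cdhr1 had 4.05, 4.90 and 5.47 in layer 6-rich libraries, against 3.07, 4.33 and 5.03 in layer 6-poor libraries, while Eomes, Tbx21, Lhx5, Lmx1a and Trh, the remaining genes of that list, were below the level tested. The median layer 6-poor library was inside the rich range in Cdhr1. Of 10 neuroblast genes Top2a, a topoisomerase of dividing cells, was higher (0.45, adjusted p = 0.0466) and Cd24 lower (-0.13, adjusted p = 0.00666); without the library with Drd2 above 4, no gene of this list was higher. None of 12 astrocyte, 12 microglia, 11 endothelial, 5 ependymal, 12 immediate early, 6 blood and 16 oxidative phosphorylation genes passed with limma, and 0 of these 74 had an unadjusted p under 0.05, against 19.4% of all genes tested. Vtn, vitronectin of pericytes, was the only one of 11 mural genes that passed (-0.20, adjusted p = 0.0155), and Rpl37 the only one of 16 ribosomal protein genes (-0.40, adjusted p = 0.0435).

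The comparison was repeated within each identifier series, which share no library. Among decimal libraries (20 layer 6-rich against 15 layer 6-poor) 424 genes were higher (2.8% of the genes tested) and 495 lower (3.27%), and among E21DCD libraries (17 against 22) 485 were higher (3.2%) and 321 lower (2.12%). Of the 919 genes called in decimal libraries 165 (18.0%) were called in the same direction in E21DCD libraries, and these are 20.5% of the 806 called there. Of the decimal calls 58.2% had the same sign in E21DCD libraries, of the E21DCD calls 68.7% had the same sign in decimal libraries, and of all genes 47.8% had 1 sign in both. The genes called in both series were 129 higher and 36 lower. They hold Rprm, Hs3st4, Thsd7b, Sulf1, Igsf21 and Zfpm2 of layer 6, Nxph4, Cplx3 and Ccn2 of layer 6b, Cux2, Wfs1 and Calb1 of layer 2/3, Vip, Slc30a3, Rgs9, Cdhr1 and 10 of the 14 myelin genes. Rprm differed by 0.70 in decimal and 0.67 in E21DCD libraries, Nxph4 by 1.00 and 0.94, and Cux2 by -0.23 and -0.30. Mbp differed by 0.56 in decimal libraries, where it did not pass (adjusted p = 0.128), and by 0.90 in E21DCD libraries (adjusted p = 0.00024). No meningeal gene passed with limma in either series alone, and 8 of 13 in decimal and 6 of 13 in E21DCD libraries were lower at an unadjusted p under 0.05, against 15.0% and 10.2% of all genes tested.

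A test of the difference between the series passed for 964 genes (6.37% of the genes tested). In the layer lists Tbr1 was among them, with 0.33 in decimal and 0.09 in E21DCD libraries (adjusted p of the difference 0.0179, limma), and so was Bcl11b, with 0.42 and 0.02 (adjusted p of the difference 0.0194). Within the 38 middle libraries, which span a mean of the ranking genes of 4.93 to 5.17, no gene had a slope on that mean that passed the test with limma (0.0% of the genes tested). Of the 15145 genes tested, 682 had an unadjusted p under 0.05 for that slope, and no conclusion is drawn from this count. The slope had the sign of the rich against poor difference in 1006 of the 1203 called genes (83.6%), against 63.5% of all genes.

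**Figure D5:**
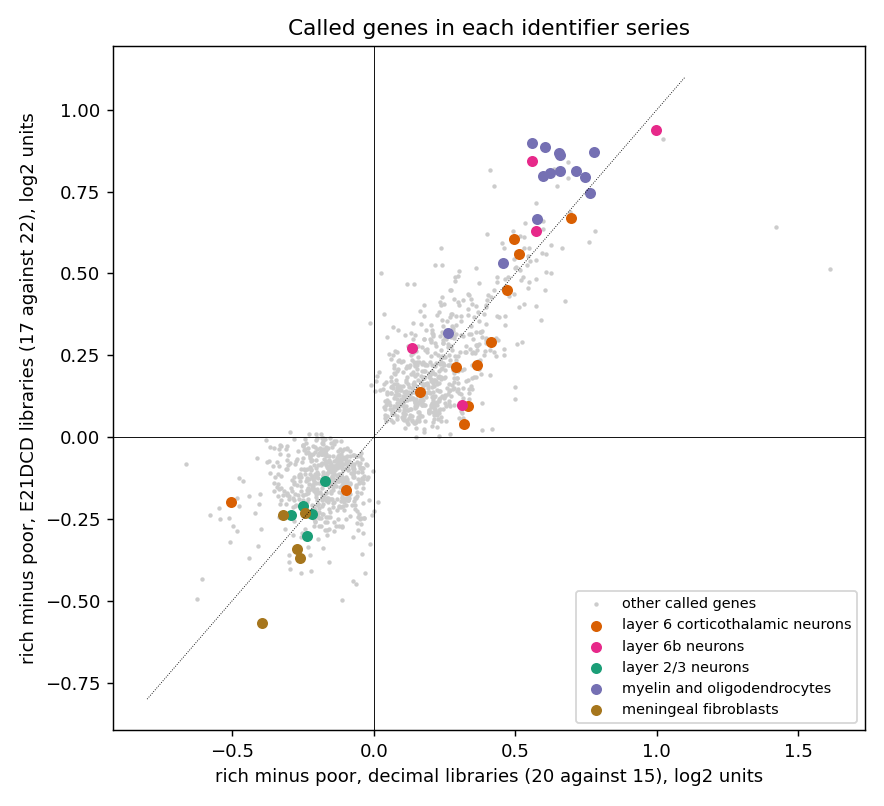
Difference between layer 6-rich and layer 6-poor libraries in decimal libraries (20 against 15, horizontal) and in E21DCD libraries (17 against 22, vertical), in log2 units, for the genes called in all libraries together; the dotted line marks equal values. Points were chosen on the pooled libraries, so most lie in the quadrants of 1 sign; Nxph4 (1.00 and 0.94) is at the upper right and the layer 2/3 genes are at the lower left.

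After their values were seen, further genes with a large difference at equal myelin level were looked at. Sema5a, a semaphorin that guides axons, had 6.65, 7.08 and 7.63 in layer 6-rich libraries, against 6.17, 6.66 and 6.93 in layer 6-poor libraries, and differed by 0.49 ± 0.05 (SE, adjusted p = 5.17e-13, limma) and by 0.48 with the covariate. Nxph3, a neurexophilin like Nxph4, had 5.29, 5.68 and 6.10 in layer 6-rich libraries, against 4.23, 5.12 and 5.58 in layer 6-poor libraries, with 0.57 ± 0.06 (SE, adjusted p = 6.84e-12) and 0.50 with the covariate. In both genes the median layer 6-rich library was above every layer 6-poor library. Chrna5, the nicotinic acetylcholine receptor subunit that layer 6 neurons use in rodents, had 3.78, 4.36 and 4.87 in layer 6-rich libraries, against 2.66, 3.85 and 4.26 in layer 6-poor libraries, with 0.58 ± 0.07 (SE, adjusted p = 6.32e-09) and 0.67 with the covariate. Cyp26b1, an enzyme that degrades retinoic acid (0.65), Bhmt, which remethylates homocysteine (0.59), and Glra2, a glycine receptor subunit (0.46), were higher and differed by 0.63, 0.57 and 0.51 with the covariate.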

How the data were processed

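Poly(A) RNA of prelimbic cortex was measured. kallisto 0.48 did the quantification, per the submitters' processing notes, and the deposited table holds log2 of the estimated count plus 1 per gene, not scaled for depth. The build is not given in the sources used here; all 38272 symbols found in RefSeq's GRCr8 table, of 38354, have a matching position. Of 164 labelled samples, 34 have no column and were not analysed here. Values were returned to the linear scale, scaled so that each library sums to 1000000, and expressed as log2(CPM + 1), a scale that understates changes of low genes. A gene was tested where its mean in the 130 libraries reached 1, with limma 3.58.1 in R 4.3.3 (trend, moderated test, two-sided, Benjamini-Hochberg over all genes tested, threshold 0.05); count tests were not used because the unit is log2. No 2 libraries were identical. The highest r between libraries was 0.945, over the genes tested and after the mean of each gene was subtracted. Figures were made with Python 3.11.15 and matplotlib 3.10.9.

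The libraries, gene lists and tests were chosen with earlier results of these data known. Named genes were drawn from the 15 largest called differences in each direction with a mean of at least 3 and a symbol that is not a locus number. They were also drawn from the extremes of each list, the tested members of the layer, myelin and claustrum lists, and the 5 largest differences between series. Not all members of these lists are named in the text. Others were chosen after their values were seen. A few genes that meet this rule are not reported here. Alternatives were other scaling, filters and pseudocount (0.1), covariates, subsets, group sizes and ranking genes. The meningeal covariate and the limit of 4 on Drd2 were added after the data were seen.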

Additional observations from a re-analysis of the deposited data

Results flagged for a closer look

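In 5 genes the difference between layer 6-rich and layer 6-poor libraries itself differed most between the identifier series (decimal minus E21DCD, limma with an interaction term, Benjamini-Hochberg). For Rplp2l2 the difference between series was 2.34, from 0.84 in decimal and -1.50 in E21DCD libraries (adjusted p = 0.00339). For Klhl34 it was -2.13, from -1.19 and 0.94 (adjusted p = 0.0262). For LOC134486952 it was 2.07, from 1.00 and -1.07 (adjusted p = 0.00978). For Hmgn5b it was 1.601, from 0.91 and -0.69 (adjusted p = 0.00339), and for Ppial4d it was 1.52, from 0.59 and -0.92 (adjusted p = 0.0186). Single libraries of both groups were at 0 in Klhl34, Hmgn5b and Ppial4d. By their names Rplp2l2, Hmgn5b and Ppial4d resemble other genes. Their levels are uncertain, since reads may be split between copies, which was not tested. None of the 5 passed in all libraries together, and all were among 964 genes with a difference between series.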

How the results depend on the processing

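The counts of 643 higher and 560 lower genes moved by over 1.5 times under these alternatives. Higher genes numbered 1076 with the myelin covariate, 424 in decimal libraries alone and 301 without the Gad2 limit. Lower genes numbered 1655 with the myelin covariate, 958 with a ribosomal protein covariate, 321 in E21DCD libraries alone, 885 when Syt6 alone ranked, 1347 when Foxp2 alone ranked, 86 without the Gad2 limit and 357 with the meningeal covariate. Without the Gad2 limit the share of higher genes among the calls was thus larger, and scaling by median of ratios gave 755 higher and 464 lower genes. The layer 6 list had 6 higher genes in E21DCD libraries, and the layer 6b list 3 at a mean of at least 3, where fewer genes are tested. Lower layer 2/3 genes numbered 3 with the myelin covariate, in decimal libraries and by Foxp2, 10 with the ribosomal covariate, 9 by Syt6 and 2 without the Gad2 limit. Of the myelin list 1 gene was higher with the covariate built from it and 2 by Foxp2. Lower meningeal genes numbered 3 at a mean of at least 3 and with summed counts as covariate, 2 with the myelin covariate, 0 in each series alone and with the covariate built from them, 8 by Foxp2, and 9 by Tle4, with all kept libraries divided at the median and with a continuous ranking mean. Striatal genes were higher in 2 cases with the myelin covariate, 1 in decimal libraries and 3 by Foxp2. Where no construction is named, the cause was not tested.

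Single genes, a part of those tested, were followed under each alternative. Of those followed that had passed, the sign changed with the myelin covariate in Aspa (-0.15), Cnp (-0.047), Mbp (-0.12), Mobp (-0.15), Ugt8 (-0.0058), Neu4 (-0.087), Olig1 (-0.10), Olig2 (-0.10), Sox10 (-0.065), Syndig1l (-0.080), Top2a (-0.085) and Gad1 (0.0017), and with the meningeal covariate in Col1a2 (0.028). Among all 1203 called genes, 213 changed sign with the myelin covariate. Of the values of the genes followed singly, and not of all genes tested, 2043 kept their side of the threshold. Among the 2043 were 53 of the opposite sign that passed in neither fit, such as Adora2a at -0.22 with the myelin covariate. A further 324 kept only the direction, and 11 passed only under the alternative. No paired analysis was possible because each library is from a separate rat and replicate numbers are only in the order of the labels.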
